A study of Mus musculus with 4 samples.

Results

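The 8 genes described here encode effector molecules of T cells: the cytokines Ifng, Csf2, Il4, Il13, Il17a, Il2 and Tnf, and the membrane-bound ligand Cd40lg. They were listed by name among the 32285 genes of the deposited tables, by no threshold on their levels, but with earlier results of these data known. All 8 were present in the tables, and UMIs (unique molecular identifiers, each standing for 1 captured transcript) of 7 were found in T cells. Il17a was the exception.

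The study profiled single CD45+ leukocytes from the liver of healthy PA-GFP C57BL/6 mice, whose cells carry a green fluorescent protein that light switches on. Photoactivation was applied in all 4 samples, so it is shared by both groups and no sample without it is compared here. There were 2 libraries from the portal vein (PV) zone, called PV1 and PV2, and 2 from the central vein (CV) zone, called CV1 and CV2. The labels give no age, and nothing in them says that a library is a mouse of its own. Every p-value here therefore weighs a difference against the variation among these 4 libraries alone, part or all of which may be technical.

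A T cell that recognises antigen through its receptor turns on cytokine genes within a short time, by way of the factors NFAT, AP-1 and NF-kB, and the messages are then quickly degraded. Which cytokines are made depends on the kind of T cell. The liver of mice is rich in natural killer T (NKT) cells, which carry CXCR6 and are known for holding transcripts of both Ifng and Il4 before stimulation. Ifng is the classical product of type 1 T cells and NK cells, Il4 and Il13 of type 2 cells, and Il17a of type 17 cells.

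The deposited tables held 588 to 755 barcodes a library. Of 1939 different barcodes, 282 occurred in at least 2 libraries. Such a barcode was kept only in the library with at least 70% of its UMIs. After this step and a limit of 10% mitochondrial UMIs, 333 to 512 cells a library remained, 1593 in all. Of these, 772 had at least 2 UMIs of Cd3d, Cd3e and Cd3g without passing the limits for other lineages, and are called T cells here: 196 in PV1, 211 in PV2, 187 in CV1 and 178 in CV2, with medians of 5734 to 6232 UMIs. The gate is a range and not a cell type, although few cells lay near its edge: the median T cell had 20 UMIs of the 3 genes, 11 T cells had exactly 2, and 52 cells had exactly 1. The label of the set held in the data, since Trac, the constant part of the T cell receptor alpha chain, was found in 87.7% of the T cells. Summed T cell counts of the 2 libraries of a zone differed beyond sampling noise (chi-square per degree of freedom 2.46 in PV and 2.84 in CV), so no library was counted as a copy of another.

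Most of the T cells were Cxcr6-positive. Of the 772, 646 (83.7%) had a UMI of Cxcr6, and 511 of these also had a UMI of Zbtb16, the factor that directs NKT cells, or of Klrb1c, which encodes NK1.1. These 511 are called NKT-like. Over all T cells, Klrb1c was found in 66.2% and Zbtb16 in only 19.8%. Most NKT-like cells were thus named by Klrb1c alone, which does not by itself make a cell an NKT cell. A further 135 had Cxcr6 without those genes, and 126 had no Cxcr6. By coreceptor, 178 T cells had Cd4 alone, 57 had Cd8a or Cd8b1, 34 had a gamma-delta receptor transcript, 4 had Foxp3 and 495 had neither coreceptor. Since most T cells showed no coreceptor UMI, the Cd4 and Cd8 classes hold only cells in which one was caught.

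Of the 8 genes, 7 had a promoter entry in the RefSeq table for GRCm38.p6, covering 250 bases before to 50 bases after each annotated start. The letters GGAAA, the core that NFAT recognises, are shown in capitals in 4 promoters, on either strand (TTTCC on the other), because the genes are known targets of this factor and the results below turn on them. The Il4 sequence begins at its outer start. The Csf2 window lies wholly upstream of the start that GENCODE vM21 gives for this gene (position 54249667), so it leaves out the bases next to that start. These 4 windows lie at chr10:118440796-118441095 (plus strand), chr11:53618616-53618915 (minus strand), chr11:54249850-54250149 (minus strand) and chr17:35201958-35202257 (minus strand), in this order.
Ifng: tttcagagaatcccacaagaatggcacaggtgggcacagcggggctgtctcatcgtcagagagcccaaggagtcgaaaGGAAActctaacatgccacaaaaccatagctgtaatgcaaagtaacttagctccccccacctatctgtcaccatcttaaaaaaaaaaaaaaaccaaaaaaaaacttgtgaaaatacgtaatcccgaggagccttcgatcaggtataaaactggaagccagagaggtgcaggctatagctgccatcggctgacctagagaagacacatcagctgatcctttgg
Il4: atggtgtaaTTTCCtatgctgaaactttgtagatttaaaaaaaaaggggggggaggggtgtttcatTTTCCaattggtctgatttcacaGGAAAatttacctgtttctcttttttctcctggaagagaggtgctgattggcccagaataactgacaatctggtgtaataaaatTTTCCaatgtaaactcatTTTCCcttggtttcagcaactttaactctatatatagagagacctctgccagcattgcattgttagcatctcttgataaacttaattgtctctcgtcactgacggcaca
Csf2: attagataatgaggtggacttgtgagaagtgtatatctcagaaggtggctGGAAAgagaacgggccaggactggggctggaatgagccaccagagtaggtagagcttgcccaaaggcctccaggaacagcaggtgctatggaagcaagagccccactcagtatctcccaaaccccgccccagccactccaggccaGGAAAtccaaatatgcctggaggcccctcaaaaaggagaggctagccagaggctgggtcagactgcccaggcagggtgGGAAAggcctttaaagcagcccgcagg
Tnf: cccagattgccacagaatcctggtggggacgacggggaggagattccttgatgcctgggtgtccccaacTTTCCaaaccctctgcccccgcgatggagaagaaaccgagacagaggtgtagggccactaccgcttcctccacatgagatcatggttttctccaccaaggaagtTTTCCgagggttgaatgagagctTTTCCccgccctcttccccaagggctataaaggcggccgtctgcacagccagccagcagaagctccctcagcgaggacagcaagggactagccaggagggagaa

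The core was found 5 times in the Il4 window shown and 1 time in the window of its inner start, 3 times each in those of Csf2 and Tnf and 1 time in that of Ifng. Il13, not printed, had 4 matches, Il2 had 2 and Il17a had 0. Over the 32851 promoter windows of the same table, 61.3% held at least 1 match, 9.42% held 3 or more and 2.65% held 4 or more. The AP-1 letters TGANTCA were found in the window of Il17a and in none of the others, against 7.81% of all windows. The letters TATAAA of a TATA box, read on both strands, were found in 5 of the 7 genes (Ifng, Il2, Il13, Il17a and Tnf), against 13.6% of all windows. An NF-kB motif (in 1.63% of windows) and the cyclic AMP response element TGACGTCA (1.79%) were in none of them. A match is a string of letters and not a binding site, and binding was not measured.

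Ifng encodes interferon gamma, which activates macrophages. Among T cells, 292 of 772 (37.8%, Wilson 95% interval 34.5 to 41.3) had an Ifng UMI, 1775 UMIs in all. The share was 30.6% in PV1, 41.7% in PV2, 43.9% in CV1 and 34.8% in CV2, so that each zone had 1 higher and 1 lower library. Of 163 B cells, which should lack it, 0 had an Ifng UMI, which allows a share of cells with a UMI of up to 1.84%, at a median of 3710 UMIs against 6043 in T cells. Among the T cells with Ifng, the median held 2 UMIs and the highest cell 92, and the top 10% of them (30 cells) held 50.9% of all Ifng UMIs in T cells.

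Il4 encodes interleukin 4, which acts on B cells and on macrophages. It was found in 329 T cells (42.6%, interval 39.2 to 46.1) with 791 UMIs. The share was 43.4% in PV1, 45.02% in PV2, 41.7% in CV1 and 39.9% in CV2, the narrowest relative range of the frequent genes. Its UMIs were spread more evenly over cells than those of Ifng, with 24 as the highest and 34.8% of UMIs in the top 10%. A single B cell of 163 (0.613%) had an Il4 UMI.

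Cd40lg, the ligand by which T cells activate B cells, dendritic cells and macrophages through CD40, had the highest count of T cells with a UMI of the 8 genes, which describes detection and not level. It was found in 433 T cells (56.1%, interval 52.6 to 59.6) with 1301 UMIs, and in 0 of the B cells, NK cells, macrophages, neutrophils and dendritic cells. Its share was 56.1% in PV1, 60.7% in PV2, 55.1% in CV1 and 51.7% in CV2.

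Tnf encodes tumour necrosis factor, an inflammatory cytokine made by many leukocytes. It was found in 180 T cells (23.3%, interval 20.5 to 26.4), with shares of 23.5%, 21.3%, 28.3% and 20.2% in PV1, PV2, CV1 and CV2. Unlike the other 7 genes it was frequent in myeloid cells, in 37 of 86 neutrophils (43.0%, at a median of 3145 UMIs) and 65 of 258 macrophages (25.2%). In B cells it was found in 3 of 163 (1.84%). With every cell thinned to 2000 UMIs, Tnf was found in 37.0% of neutrophils, 15.8% of macrophages, 11.6% of T cells and 0.641% of B cells, so the order of these classes was kept at equal depth.

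Csf2 encodes GM-CSF, a growth factor for myeloid cells. It was found in 95 T cells (12.3%, interval 10.2 to 14.8) and in 0 B cells, macrophages, neutrophils and dendritic cells. The share of T cells was 9.18% in PV1, 17.1% in PV2, 12.8% in CV1 and 9.55% in CV2. More than for any other frequent member, its UMIs came from a few cells: of 586 UMIs, 218 lay in a single cell of PV1 and the top 10% of positive cells (10 cells) held 78.5%. In PV2 a single cell held 133 of 214 UMIs, and in CV1 a single cell held 32 of 75. No cell of CV2 held more than 2.

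Il2, the T cell growth factor, was rare. It was found in 59 T cells (7.64%), with 78 UMIs in all and at most 5 in a cell, and in 1 B cell (0.613%). Il13, which acts on epithelium and macrophages much as Il4 does, was found in only 4 T cells, 2 in PV1 and 2 in PV2, and 27 of its 31 UMIs lay in 1 cell. That cell, a Cd4-positive NKT-like cell of PV1 with 11817 UMIs, was the same that held the 218 Csf2 UMIs; it also held 22 UMIs of Ifng, 20 of Il4, 16 of Tnf and 20 of Cd40lg. It was the only T cell with 6 of the 8 genes after thinning. The other 3 cells with Il13 had 1 or 2 UMIs of it. Scrublet, which calls doublets from simulated cell pairs, marked 12 cells in all; these were kept, and the counts without them are among the alternatives.

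Il17a was found in 0 of 772 T cells, which allows a share of cells with a UMI of up to 0.389% and limits detection rather than expression. It was also at 0 in the 34 gamma-delta T cells, a class that can make it. With so few cells, that 0 allows a far larger share than the limit over all T cells.

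**Figure D1:**
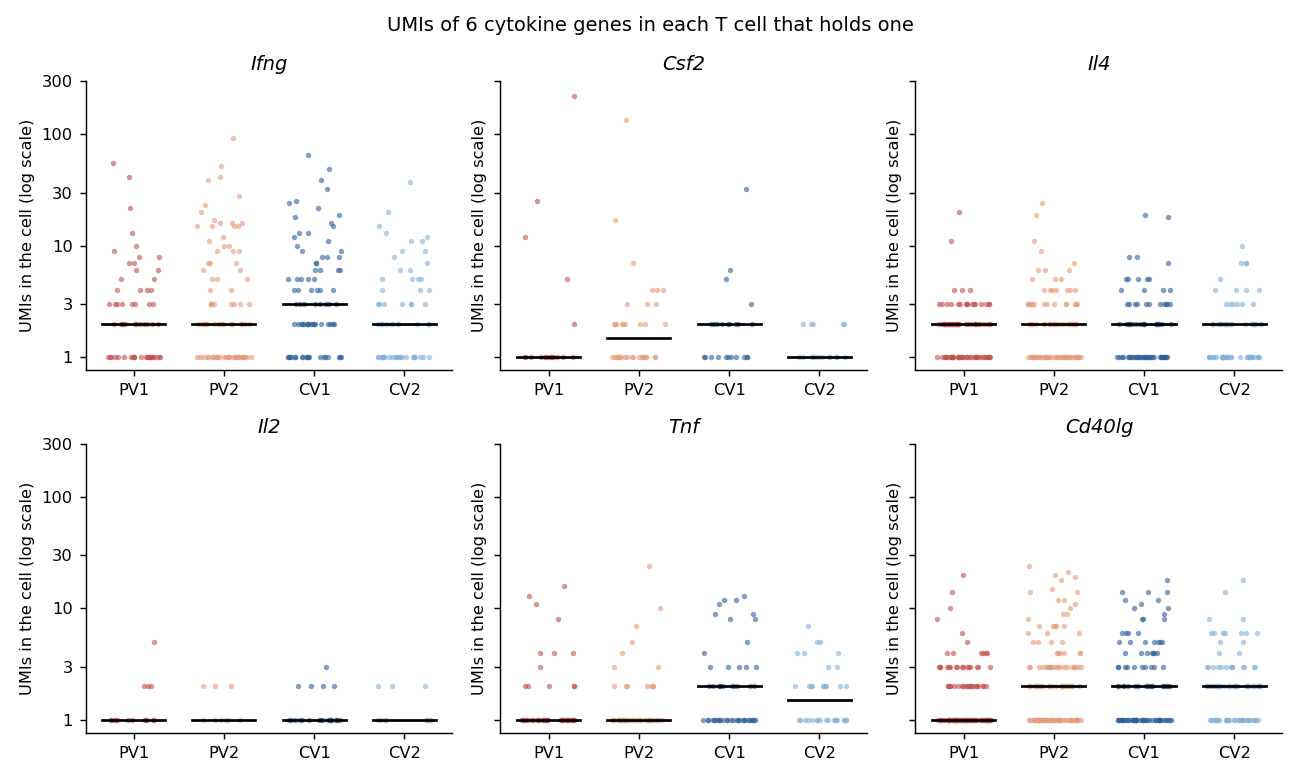
UMIs per T cell (log axis) of 6 genes in the 4 libraries, with each point 1 T cell that holds at least 1 UMI and the line the median of those cells. The Csf2 panel shows the single cells with 218 UMIs in PV1 and 133 in PV2 above all others, while no cell of CV2 passes 2.

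Most genes near the 8 in the genome were scarcely found. Il3 lies 15.6 kb from Csf2 on chromosome 11 (GENCODE vM21, GRCm38) and had 0 UMIs in T cells. Il5, on the other side of Il13 from Il4, was found in 1 T cell and Il21, near Il2, in 2. Il4 and Il13 lie 12.7 kb apart, and 3 of the 4 cells with Il13 also had Il4. Il22 and Il17f, partners of type 17 cells, were at 0 in T cells, as were Il9 and Il10. Lta, 1.16 kb from Tnf, was found in 23 T cells, 7 of which also had Tnf. Ltb, which belongs to the same locus and encodes lymphotoxin beta, was the exception with 696 T cells.

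Among other effector genes, the chemokine gene Ccl5 was found in 637 T cells and Fasl, a death ligand, in 366. Xcl1, which attracts dendritic cells, was found in 499.

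The receptors of the 8 were found on other cells to different extents, as described by counts of cells with a UMI. Csf2ra and Csf2rb, the chains of the GM-CSF receptor, were in 56 and 38 of 86 neutrophils, in 159 and 108 of 258 macrophages and in 100 and 79 of 117 dendritic cells, but in 37 and 2 of 772 T cells. Ifngr1, the binding chain of the interferon gamma receptor, was found in 596 T cells, while the signalling chain Ifngr2 was found in 8, against 132 macrophages. Il4ra was found in 147 T cells, 71 macrophages and 36 B cells. Cd40 was found in 26 of 163 B cells, 37 macrophages and 19 dendritic cells and in 0 T cells. The IL-2 receptor chains Il2rb and Il2ra were found in 676 and 238 T cells.

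NK-gated cells (45 cells: 4 in PV1, 6 in PV2, 14 in CV1 and 21 in CV2) had Ifng, while no UMI of Il4 or Cd40lg was found in them. The gate asks for at least 2 UMIs of Ncr1, Klrb1c, Klre1, Klra8 and Eomes and none of Trac. It does not part NK cells from type 1 innate lymphoid cells (ILC1), and its cells are called NK cells here for short. Ifng was found in 24 of 45 NK cells (53.3%, interval 39.1 to 67.1), at a median of 4623 UMIs. On sums of counts, its CPM (counts of the summed cells scaled to a common total) in NK and T cells was 49.1 and 224 in PV1, 711 and 460 in PV2, 463 and 533 in CV1, and 1019 and 216 in CV2, with no common direction. The log2 fold change, NK against T cells, was 0.34 ± 0.26 (SE, edgeR adjusted p = 0.68). Without CV2 it was -0.52, and without PV1, which held 4 NK cells, it was 0.70 with an adjusted p from edgeR of 0.0288. With all shared barcodes kept it was 0.67 and passed as well (0.0134).

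Il4 had 0 UMIs in NK cells against 791 in T cells, which on a floor of 3 counts over the 45 cells is at least 11.2-fold lower per UMI captured. The difference passed the test (edgeR adjusted p = 2.00e-11, lower in 4 of 4 libraries). Cd40lg likewise had 0 against 1301, at least 18.4-fold lower (edgeR adjusted p = 9.66e-18, lower in 4 of 4 libraries). Csf2 had 3 UMIs in NK cells, all in CV1, a ratio of T to NK cells of 8.27 with a counting interval of 2.82 to 40.2 (edgeR adjusted p = 0.00138). Without the single cell with 218 UMIs the ratio was 5.21 (interval 1.77 to 25.4) and the adjusted p from edgeR 0.0276. The PV2 cell with 133 UMIs stayed in that ratio. The call was lost without PV1 (edgeR adjusted p = 0.0529) and with DESeq2 (0.136). Tnf and Il2 had log2 fold changes of -0.16 ± 0.40 and -0.13 ± 0.87, neither past the test. With a T gate of 1 UMI, Tnf was -1.74 and passed (edgeR adjusted p = 0.0493). So 3 of 6 tested members were lower in NK cells, where 6.04% of the 5809 genes tested passed in either direction, 1.67% higher and 4.37% lower. Il4 and Cd40lg, with 0 UMIs in NK cells, entered this test through their UMIs in T cells alone.

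Among the other cytokine genes tested in NK against T cells, 4 of 9 were higher and 1 lower. The chemokine genes Ccl3, Ccl4 and Ccl5 had log2 fold changes of 2.51 ± 0.27, 1.56 ± 0.21 and 1.43 ± 0.16 (edgeR adjusted p at most 1.17e-11), and Ltb, -0.96 ± 0.25 (lost without CV2, edgeR adjusted p = 0.0716), was the lower one. The median over the list was -0.35, against -0.19 over all genes. Of the T cell receptor and activation list, 6 of 23 were lower, among them Egr3, Egr1 (-3.48 ± 1.05) and Icos (-2.72 ± 0.55), and 1, Nr4a2 (2.46 ± 0.53), was higher. Egr3, at 0 in NK cells of every library, lost its call whichever library was left out. Egr1 lost its call without PV1, PV2 or CV2. Nr4a2 did not pass without CV2 (edgeR adjusted p = 0.424).

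**Figure D2:**
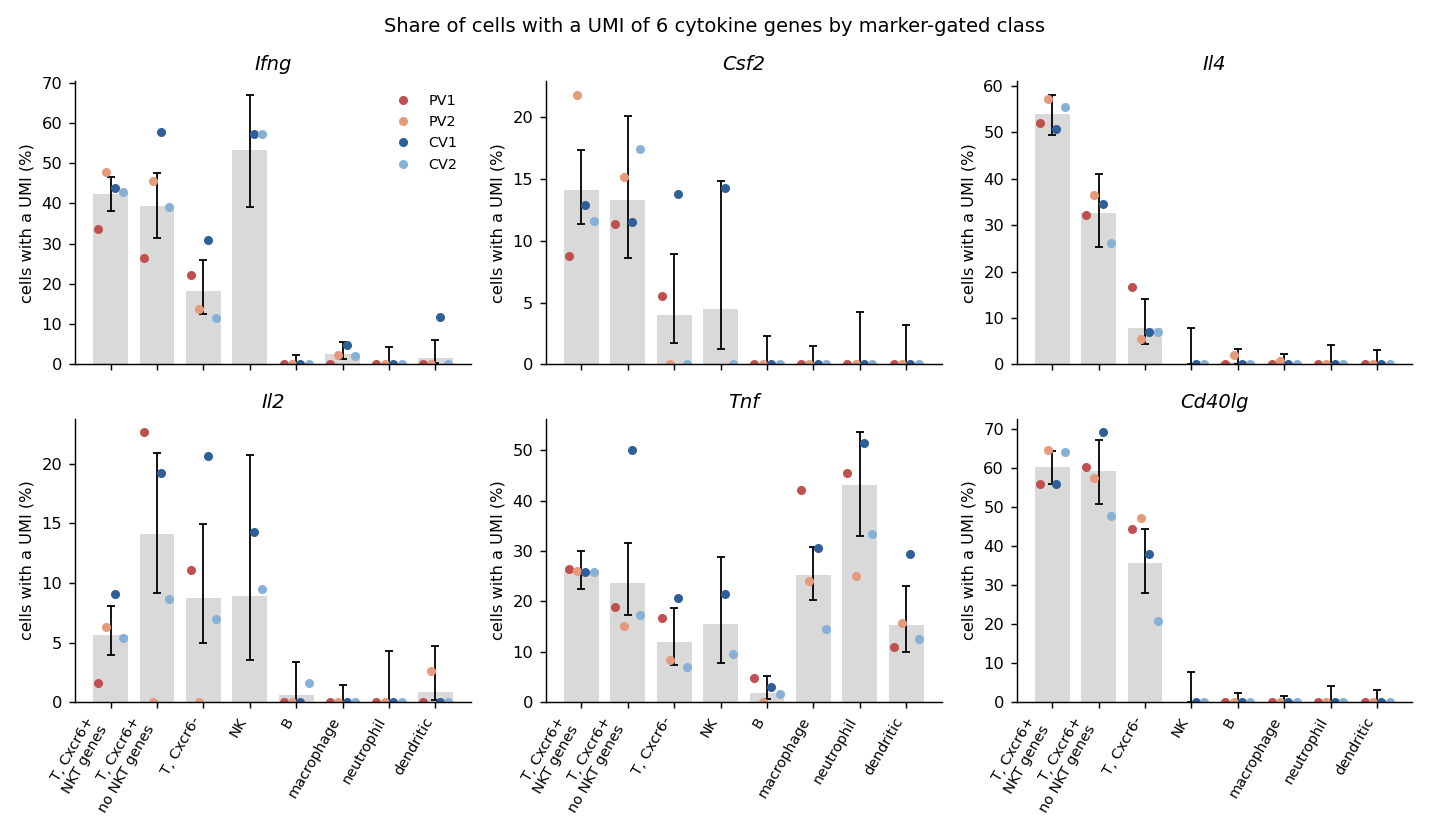
Share of cells with a UMI (percent) of 6 genes by marker-gated class. Bars give all libraries together with Wilson 95% intervals, and points give libraries with at least 10 cells of the class. Il4 falls from 53.8% of NKT-like cells to 7.94% of T cells without Cxcr6, Cd40lg is at 0 in the other classes shown, and Tnf is highest in neutrophils at 43.0%.

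Within T cells, Il4 separated most clearly between cells with and without Cxcr6, which encodes the chemokine receptor that marks T cells residing in the liver. Il4 was found in 319 of 646 Cxcr6-positive cells (49.4%) and in 10 of 126 without it (7.94%), at medians of 6164 and 5411 UMIs. Its CPM with and without Cxcr6 was 150 and 32.7 in PV1, 214 and 14.7 in PV2, 208 and 21.7 in CV1, and 145 and 33.0 in CV2. The lowest library with Cxcr6 thus lay well above the highest without. The log2 fold change was 2.64 ± 0.30 (edgeR adjusted p = 2.07e-06, higher in 4 of 4 libraries).

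Ifng was higher as well, and by less. It was found in 41.6% of cells with Cxcr6 and 18.3% without, and its CPM was 229 and 153 in PV1, 490 and 275 in PV2, 564 and 297 in CV1, and 259 and 62.3 in CV2. The 2 groups overlapped across libraries but every library had the same direction (log2 fold change 0.94 ± 0.20, edgeR adjusted p = 0.00441, 4 of 4 libraries). Without CV2 it was 0.70 with an adjusted p from edgeR of 0.109.

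Csf2 had 263, 214, 70 and 22 UMIs in Cxcr6-positive cells of PV1, PV2, CV1 and CV2, and 12, 0, 5 and 0 in cells without. Its log2 fold change was 1.91 ± 0.46 (edgeR adjusted p = 0.0141, 4 of 4 libraries). This call rested on few cells: without the cell with 218 UMIs it was 1.24 ± 0.64 with an adjusted p from edgeR of 0.377, and without PV2 or CV2 the adjusted p was 0.12 and 0.0933. It also missed with DESeq2 (0.378), a T gate of 1 UMI (0.0553) and no myeloid limit (0.0720). Cd40lg, 0.74 ± 0.24, missed the threshold (edgeR adjusted p = 0.0859), which it passed without PV2 (0.000945) or CV1 (0.0397), with all shared barcodes kept (0.0185) and with no filter on low counts (0.00227). Tnf was 0.42 ± 0.35 (0.661). Il2 had too few UMIs for the test, with 63 UMIs in 646 cells against 15 in 126, and all 31 UMIs of Il13 were in Cxcr6-positive cells. In sum 3 of 5 tested members were higher, where 4.74% of the 5839 genes tested passed in either direction, 1.8% higher and 2.95% lower.

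Other genes of the lists differed too. Il2ra, the high-affinity chain of the IL-2 receptor, was higher with Cxcr6 (2.61 ± 0.44, edgeR adjusted p = 0.000397), as was Rora, a factor of innate-like lymphocytes (2.27 ± 0.36). Fasl and Tnfsf14 were also higher (1.20 ± 0.26 and 1.67 ± 0.40). Tcf7 and Lef1, which maintain naive and memory T cells, were lower (-2.60 ± 0.22 and -1.93 ± 0.20), together with the ligand gene Tnfsf8 (-1.62 ± 0.38) and Ccl3 (-1.68 ± 0.27). Of the activation list 2 of 23 genes were higher, with a list median of -0.03 against 0.02 over all genes. Of the immediate early and heat shock list 1 of 14, Dusp1, was higher (0.77 ± 0.21). Leaving out PV2 ended the calls of Fasl, Tnfsf8 and Dusp1, leaving out PV1 that of Tnfsf8, CV1 that of Tnfsf14 and CV2 those of Tnfsf14 and Dusp1.

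Among Cxcr6-positive cells, the NKT genes separated the members little. Il4 was found in 53.8% of NKT-like cells and 32.6% of the 135 cells with Cxcr6 and no NKT gene. Its CPM with and without them was 167 and 104 in PV1, 235 and 112 in PV2, 197 and 275 in CV1, and 163 and 67.6 in CV2, so CV1 went the other way. The log2 fold change was 0.52 ± 0.25 (edgeR adjusted p = 0.909). Csf2, 0.77 ± 0.66, was -0.16 without the cell with 218 UMIs and passed without CV1 (2.43, edgeR adjusted p = 0.0481). None of the 5 tested members passed with all libraries, where 0.126% of 5569 genes did, 7 in number (0.0718% higher, 0.0539% lower; 298 at an unadjusted p under 0.05, and 7 with DESeq2). These 7, named after their values were seen, were Ube2c, Klrc1, Tyrobp and Fcer1g (higher) and Gpr183, Cd8a and Cd8b1 (lower); Klrc1, Tyrobp and Fcer1g are known from NK receptor complexes.

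Csf2 differed in this contrast between the zones. Its CPM in NKT-like cells and in the other Cxcr6-positive cells was 288 and 31.6 in PV1, 212 and 34.1 in PV2, 41.8 and 260 in CV1, and 22.0 and 28.2 in CV2. The effect in PV minus the effect in CV was 4.92 ± 0.59 on the log2 scale (edgeR adjusted p = 6.72e-05), and 3.60 ± 0.65 (0.00984) without the cell with 218 UMIs. In this test 5 of 5569 genes passed. The Csf2 values rest on single cells, since 133 UMIs of PV2 and 32 of the 35 UMIs of CV1 without NKT genes each lay in 1 cell. Those cells stayed in both fits. By cells with a UMI, Csf2 was found in 14.1% of NKT-like cells and in 13.3% of the others.

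Cd4-positive and Cd8-positive T cells differed in most of the tested members, with few Cd8-positive cells (9, 19, 5 and 24 in PV1, PV2, CV1 and CV2). Il4 was found in 91 of 178 Cd4-positive cells (51.1%) and in 4 of 57 Cd8-positive cells (7.02%), at medians of 6483 and 6172 UMIs. Its CPM was 192 against 60.9 in PV1, 181 against 26.4 in PV2, 260 against 0 in CV1 and 151 against 8.79 in CV2, with no overlap. The log2 fold change was 2.82 ± 0.47 (edgeR adjusted p = 0.000659).

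Cd40lg, best known from helper T cells, was found in 66.9% of Cd4-positive and 14.0% of Cd8-positive cells. Its CPM was 243 against 60.9, 261 against 79.1, 412 against 52.3 and 217 against 13.2 in PV1, PV2, CV1 and CV2, again without overlap (log2 fold change 2.43 ± 0.40, edgeR adjusted p = 0.000561, 4 of 4 libraries).

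Csf2 had 409 UMIs in Cd4-positive cells and 2 in Cd8-positive cells, a ratio per UMI captured of 71.7 with a counting interval of 19.7 to 594 (edgeR adjusted p = 1.25e-05, higher in 4 of 4 libraries). As 218 of the 409 lay in 1 cell, the ratio without that cell was 33.8 (9.23 to 281). This ratio still rests largely on 1 further cell, since 133 of the 142 UMIs in Cd4-positive cells of PV2 lay in a single cell. Without the cell with 218 UMIs, or without CV1, Csf2 was below the filter on low counts and gave no test. By cells the difference was smaller, with 23 of 178 (12.9%, interval 8.77 to 18.6) against 2 of 57 (3.51%, interval 0.968 to 11.9).

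Ifng was found in 37.6% of Cd4-positive and 14.0% of Cd8-positive cells; its log2 fold change of 1.88 ± 0.51 did not pass (edgeR adjusted p = 0.0599), and CV1 went the other way with 744 against 942 CPM. It passed without PV1, CV1 or CV2 (0.0184, 0.0348 and 0.0198), and on all libraries with a T gate of 1 UMI (0.0362), all shared barcodes kept (0.00824) or no filter on low counts (2.07e-05). Tnf did not differ beyond its error (-0.11 ± 0.54, 95% interval -1.16 to 0.95). Thus 3 of 5 tested members were higher in Cd4-positive cells, where 1.77% of 3050 genes passed in either direction, 0.951% higher and 0.82% lower. Csf2 is among these 3, but it was above the filter on low counts only with the cell of 218 UMIs. Its place in this count therefore rests on that cell. From the other lists, Icos and Bhlhe40, both activation genes, were higher (1.964 ± 0.395 and 2.04 ± 0.47), and Ccl3, Ccl4, Runx3 (a factor of Cd8-positive cells) and Tcf7 were lower. Each of these calls was lost in at least 1 fit without a library: Icos and Bhlhe40 without PV2, Bhlhe40 also without CV2, Ccl3, Ccl4 and Runx3 without CV1, Ccl4, Runx3 and Tcf7 without PV2, and Runx3 and Tcf7 without PV1. The classes by coreceptor and by Cxcr6 were cut independently and share cells.

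**Figure D3:**
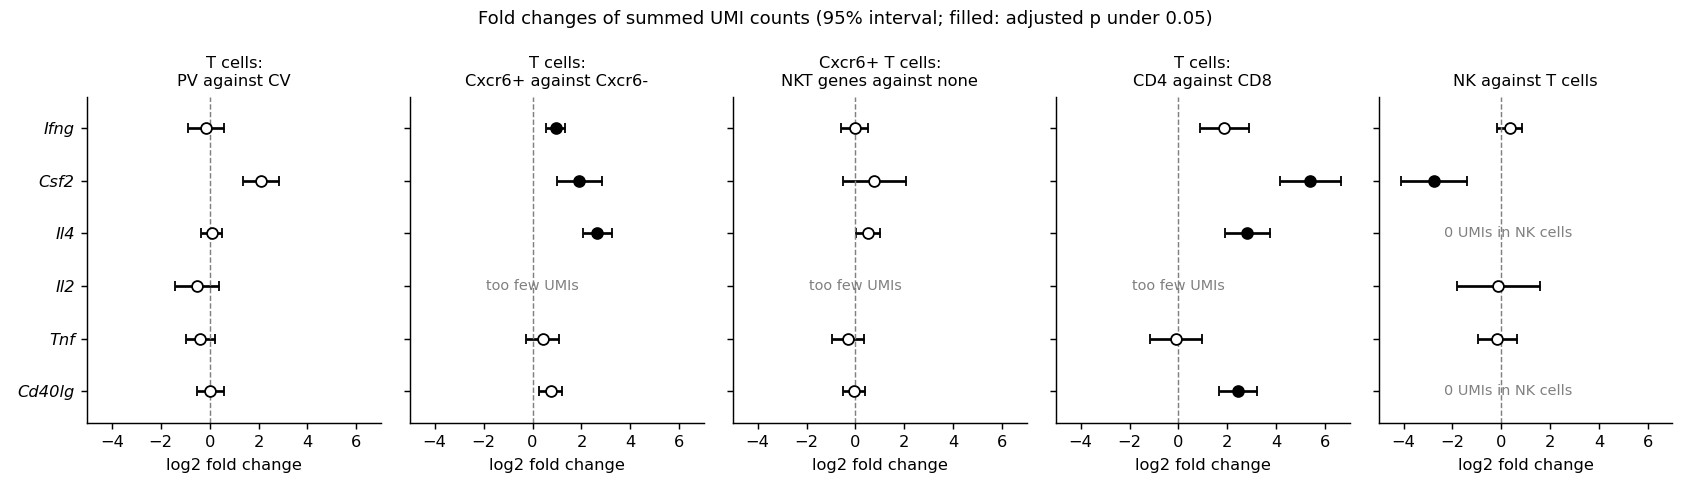
Log2 fold changes of 6 genes in 5 comparisons, fitted in edgeR on UMI counts summed per library and class, with 95% intervals; filled points passed an adjusted p of 0.05. Il4, Ifng and Csf2 are filled for Cxcr6, and Il4, Csf2 and Cd40lg for Cd4 against Cd8, while no gene is filled between the zones.

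Between the zones, no member passed the test in T cells as designed, and Csf2 passed under some alternatives. Csf2 was the member with the largest difference: its CPM was 213 in PV1, 154 in PV2, 67.5 in CV1 and 18.0 in CV2, so both PV libraries lay above both CV libraries. The log2 fold change, PV against CV, was 2.10 ± 0.38 with an unadjusted p of 0.000176 and an edgeR adjusted p of 0.353. The cell with 218 UMIs carried much of it, as PV1 fell to 44.6 CPM without that cell, below CV1, and the log2 fold change to 1.23 ± 0.57 (edgeR adjusted p = 0.999). With no filter on low counts Csf2 was 2.12 and passed (edgeR adjusted p = 2.94e-19). Leaving out any 1 library also made it pass, with 1.43 without CV2 and 3.30 without CV1 as the extremes and edgeR adjusted p of at most 6.75e-05. Tnf also passed without CV2 (-0.87, edgeR adjusted p = 0.0297), and the genes called numbered 3 to 10 higher and 11 to 62 lower. In those fits the single library left in a zone is assumed to vary like the pair in the other. The share of T cells with a Csf2 UMI overlapped between the zones, with 13.1% ± 5.57 (SD, n = 2) in PV and 11.2% ± 2.32 (SD, n = 2) in CV, and an exact permutation p of 1.

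None of the other 5 tested members passed, and all 5 had 95% intervals that include 0. Ifng was -0.14 ± 0.37, Il4 0.08 ± 0.21, Cd40lg 0.03 ± 0.28, Tnf -0.38 ± 0.30 and Il2 -0.52 ± 0.46, with edgeR adjusted p of 0.999. The 95% intervals were -0.87 to 0.59 for Ifng, -0.33 to 0.50 for Il4, -0.51 to 0.57 for Cd40lg, -0.98 to 0.22 for Tnf and -1.42 to 0.39 for Il2. By share of cells, thinned to 4881 UMIs, Il4 was found in 41.6% and 41.4% of T cells of PV1 and PV2 and in 41.1% and 38.1% of those of CV1 and CV2. The groups did not overlap but differed by 1.87 points, and the exact permutation p was 0.333, the smallest that 2 against 2 libraries allow. The zones did not overlap for Il13 either (1.30% and 0.637% in PV1 and PV2, 0% in CV1 and CV2), nor for Cd40lg unthinned. No share of all genes without overlap is given beside these or beside the CPM of Csf2, so they are description only.

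In the same fit 0 of 8013 genes were called in T cells, a background of 0%, and 247 genes had an unadjusted p under 0.05. With DESeq2 there were 2 calls, the chemokine genes Xcl1 and Ccl3, both lower in PV. In the edgeR fit these were -0.98 ± 0.14 and -1.88 ± 0.28 (edgeR adjusted p = 0.118 for both). Within Cxcr6-positive T cells 0 of 7644 genes were called (0%; 238 at an unadjusted p under 0.05, and 0 with DESeq2), and Csf2 was 2.05 ± 0.34 (edgeR adjusted p = 0.42). With the replicate number as a block, Csf2 there was 2.12 with an adjusted p from edgeR of 0.0186, and with thinned cells 1.92 with 0.019. Csf2 also passed there without any 1 library (1.46 to 3.09). Ifng was called lower in PV without PV2 (-0.87, edgeR adjusted p = 0.0185) and without CV2 (-0.67, 0.0411), and Tnf without CV2 (-0.97, 0.00574). Of the immediate early and heat shock genes, 1 of 15 was above 0 in T cells, with a median of -0.38 against 0.00 over all genes and none past the test. Markers of hepatocytes (3 of 3 found in PV1 and PV2, 1 in CV1 and 2 in CV2) summed to 24.8 and 31.0 CPM in the T cells of PV1 and PV2 and to 6.30 and 6.54 in those of CV1 and CV2. Apoa1 was at 0 in both CV libraries. The part of this RNA in the zonal values was not tested.

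Several of the genes were often found in the same T cell. With every cell thinned to 4881 UMIs (154, 157, 129 and 139 T cells kept), 114 of 579 cells had none of the 8 genes, 164 had 1, 161 had 2, 91 had 3, 41 had 4, 7 had 5 and 1 had 6. Cells with 2 or more made up 45.5% in PV1, 55.4% in PV2, 59.7% in CV1 and 48.2% in CV2, a mean of 52.2% ± 6.53 (SD, n = 4), and 55.1% ± 4.34 (SD, n = 4) unthinned. The zones overlapped in this share.

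The type 1 gene Ifng and the type 2 gene Il4 were found together in 106 cells, against 84.9 from the product of their shares, a ratio of 1.25 and above the product in each of the 4 libraries. That is 50.7% of the cells with Ifng and 45.1% of those with Il4. Csf2 and Ifng had the highest ratio of the pairs drawn, in 40 cells against 24.7 from the product (ratio 1.62), and 60.6% of the cells with Csf2 also had Ifng. The pair was above the product in PV1 (4 against 3.55), PV2 (17 against 10.2), CV1 (8 against 6.82) and CV2 (11 against 4.14). Cd40lg with Il4 (148 cells, ratio 1.21), with Ifng (129, 1.17) and with Csf2 (46, 1.31) was also above the product in every library.

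Pairs with Il2 were not all above the product. With Il4 it was found in 12 cells against 13.5 from the product (ratio 0.89), and with Cd40lg in 16 against 17.5 (0.92), though with Ifng it was in 17 against 12.0. Tnf and Ifng were together in 59 cells (ratio 1.39), but CV2 was not above its product. Within NKT-like cells alone (413 cells after thinning) the ratio was 1.52 for Ifng with Csf2 and 1.12 for Ifng with Il4, the latter above the product in 3 of 4 libraries. These counts carry no test, since cells of a library are not replicates and share its depth and mixture of T cells.

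By combination, the most frequent after no gene at all was Cd40lg alone (73 cells), then Il4 with Cd40lg (56), Il4 alone (40), Ifng with Il4 and Cd40lg (36) and Ifng with Cd40lg (30). The set Ifng, Csf2, Il4 and Cd40lg with no other member was found in 13 cells, from every library, and 6 of those were in PV2. A further 5 cells held this set with Tnf, and 1 held it with Il13 and Tnf.

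**Figure D4:**
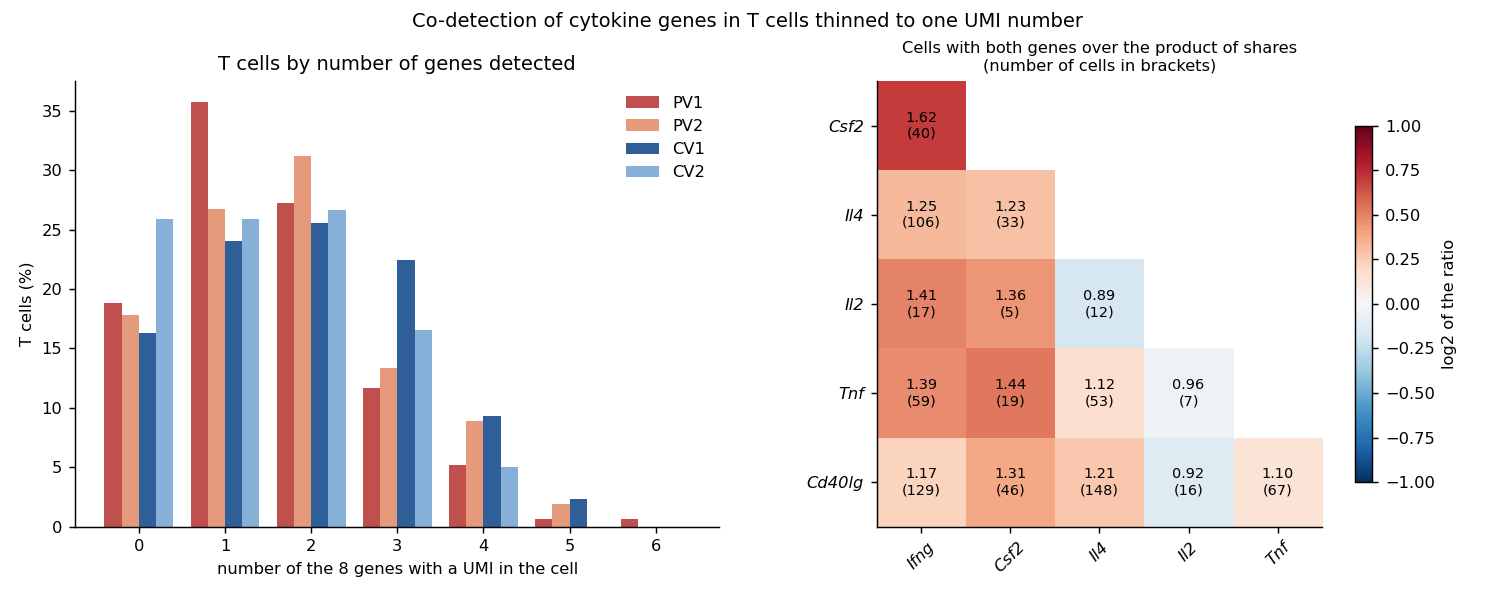
Left, percent of T cells by the number of the 8 genes with a UMI, in each library at 4881 UMIs a cell. Right, cells with both genes divided by the product of the shares (colour: log2 of this ratio), with the number of cells in brackets; Ifng with Csf2 has the highest ratio at 1.62, and Il2 with Il4 the lowest at 0.89.

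T cells with 2 or more of the 8 genes differed from T cells with none in many other genes. The members themselves were taken out of the table, and 301 cells with several were summed against 114 with none, in each library. Of 3136 genes, 65 were higher and 83 lower in cells with several (4.72% called, 2.07% higher and 2.65% lower). The highest by fold were listed only from called genes that were higher in all 4 libraries, so that agreement was set by the listing. They were mostly early response genes, and included Gadd45b (3.76 ± 0.31), Nr4a3 (3.02 ± 0.40), Fos (2.74 ± 0.22), Fosl2, Dusp1, Junb (2.38 ± 0.13), Fosb and Nfkbid (2.26 ± 0.30), with edgeR adjusted p of at most 5.18e-05. Isg15, an interferon-induced gene, was among them (2.37 ± 0.28).

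Gadd45b, which is induced by stress and by T cell receptor signals, had a CPM of 267, 576, 528 and 269 in cells with several genes of PV1, PV2, CV1 and CV2, and of 7.06, 7.32, 48.8 and 45.5 in cells with none. Fos, a subunit of AP-1, had 405, 1053, 928 and 716 against 21.2, 117, 263 and 85.4. For both, the lowest library with several lay above the highest with none.

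By list, 12 of 14 immediate early and heat shock genes were higher and none lower, with a median of 1.57 against -0.01 over all genes. This list holds genes that are also induced when tissue is taken apart into cells, and its part in the result was not tested. Dnajb1, a heat shock gene of the list, was higher by 1.74 ± 0.23. In the T cell receptor and activation list 9 of 19 were higher and none lower, with a median of 0.92. The 4 with the largest changes were Nr4a3, Nfkbid, Nr4a1 (1.84 ± 0.27) and Dusp2 (1.32 ± 0.19). Nr4a1 and Nr4a3 are direct targets of T cell receptor signals, while Nfkbid encodes a regulator of NF-kB and Dusp2 a brake on MAP kinases.

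Of 7 tested genes of message decay, 3 were higher and none lower, with a list median of 0.27 against -0.01 over all genes. Zfp36, Zfp36l1 and Zfp36l2, whose proteins bind AU-rich elements of cytokine messages and shorten their life, were higher by 1.16 ± 0.26, 0.61 ± 0.17 and 1.01 ± 0.13 (edgeR adjusted p = 0.00682, 0.0393 and 5.57e-06). Zfp36l2 passed without any 1 library, while Zfp36 lost the call without CV2 (0.183) and Zfp36l1 without PV2, CV1 or CV2. Of lineage factors, Maf (1.20 ± 0.19) and Rora (1.05 ± 0.27) were higher and Tcf7 (-1.46 ± 0.23) and Lef1 (-1.32 ± 0.21) lower, 4 of 11 tested, with Rora not called without CV1 or CV2. Fasl was the only other cytokine or ligand gene past the test (0.80 ± 0.23, edgeR adjusted p = 0.0426), a call lost without PV1, PV2 or CV2, and of 8 receptor genes none passed.

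The genes lowest by fold were Dapl1 (-6.57 ± 0.48) and Ccr7 (-5.17 ± 0.48), both of naive T cells, then Gzma, Tyrobp and Klra5, known from cytotoxic and NK-like cells. Dapl1 had 2 UMIs in cells with several genes against 101 in cells with none, or 133 times as many per UMI captured (counting interval 35.9 to 1114) in the latter. Klra5 was at 0 in both classes of PV1 and lower in 2 of 4 libraries. Without CV2, Gzma was -0.91 and Tyrobp -0.93, and neither passed (edgeR adjusted p = 0.131 and 0.0718). Gzma also lost the call without CV1, and Klra5 without CV1 or CV2. Ccr7 had a CPM of 2.93, 2.36, 2.67 and 3.06 in cells with several genes, and of 84.8, 51.2, 195 and 120 in cells with none.

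Restricted to NKT-like cells, the comparison called 33 genes higher and 10 lower. Gadd45b (4.27), Fos (3.08), Junb (2.36), Nfkbid (2.39) and Nr4a1 (2.23) kept their direction and passed, while Maf (0.59), Rora (0.59) and Lef1 (-0.24) did not. The calls of Zfp36 (1.22, edgeR adjusted p = 0.272), Zfp36l1 (0.72, 0.192), Fasl (0.44, 0.704) and Gzma (-2.68, 0.121) were lost there too, and Zfp36l2 kept its call (0.86, 0.0023). Nr4a3, Fosb, Tcf7, Dapl1 and Ccr7 gave no value in these cells.

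**Figure D5:**
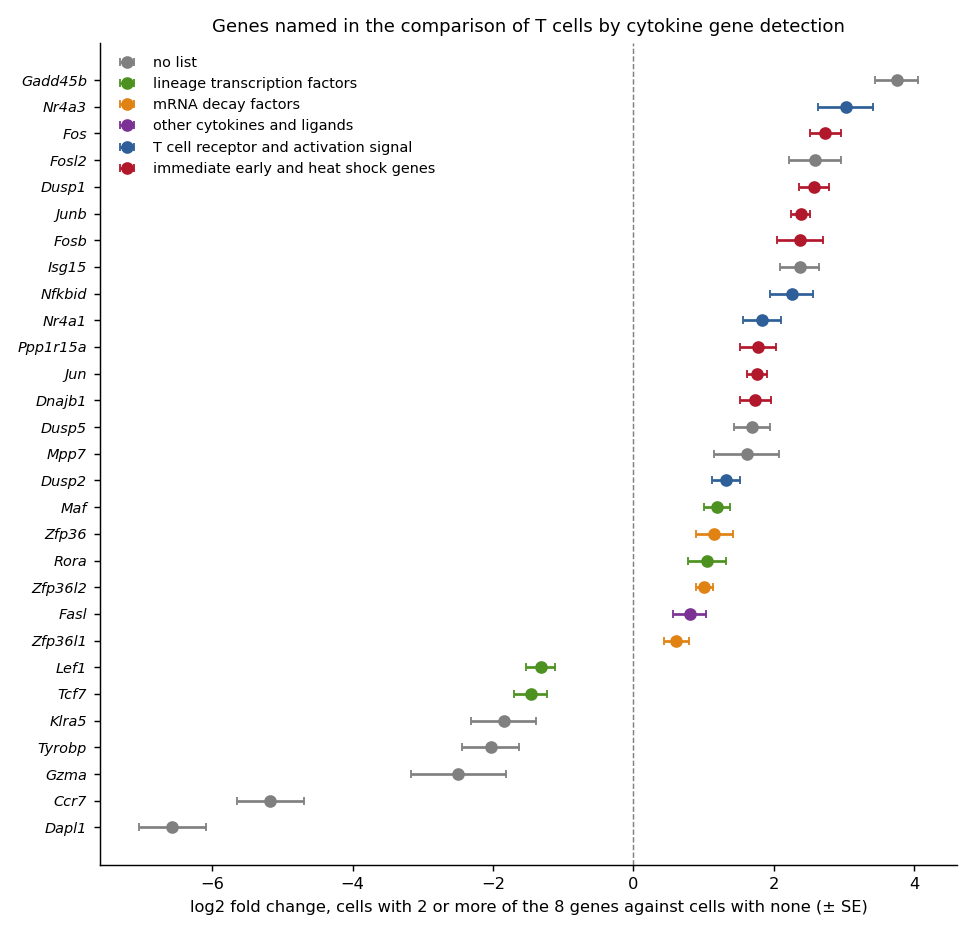
Log2 fold changes (± SE) of genes named for T cells with 2 or more of the 8 genes against T cells with none, coloured by gene list. Drawn are those that passed an edgeR adjusted p of 0.05; the receptor genes Il2rb and Il2rg (0.202 and 0.21) are left out. Gadd45b, Nr4a3 and Fos are highest at 3.76, 3.02 and 2.74, and Dapl1 and Ccr7 lowest at -6.57 and -5.17.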

How the data were processed

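Each library came as a table of whole-number UMI counts, deposited without normalization and made with 10x Chromium 3′ v3.1 chemistry per the labels' protocols. Cell Ranger 4.0.0 and the build mm10 are named per the submitters' processing notes; the annotation used is not given in the sources used here. The 3′ UMIs give 1 count per captured molecule, and cells with a UMI of different genes are set side by side as detection, not as levels. The members and gene lists were chosen with earlier results of these data known. Symbols were matched for 32158 of 32285 identifiers.

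Cells had at least 200 genes and at most 10% mitochondrial UMIs, and a shared barcode stayed in the library with at least 70% of its UMIs. Gates were at least 2 UMIs of T, B or NK markers and 6 of myeloid ones. Cells passing several gates (66) and none (58) were left out. Doublet calls (scrublet, expected rate 3%, scanpy 1.11.5) were kept. Libraries had totals of 2741760 to 4373488 UMIs over all barcodes.

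Because a cell is no replicate, each class of cells was added up within its library, and these sums entered the quasi-likelihood F test in edgeR 4.0.16 (TMM, filterByExpr, Benjamini-Hochberg adjustment over all genes tested at 0.05) in R 4.3.3. Zones were compared without a block, and classes of the same libraries with the library as a block. DESeq2 1.42.0 was an alternative. The minimum of 10 cells a sum was lowered to 4 for Cd4 against Cd8 and NK against T cells after cell numbers were seen, and the split by NKT genes, the interactions with zone and the results without the cell richest in Csf2 were added after the data were seen. Thinning drew 4881 UMIs a cell, the 25th percentile of T cells, leaving out 42, 54, 58 and 39 T cells of PV1, PV2, CV1 and CV2. Wilson 95% intervals, exact Poisson-based ratios and the floor of 3 counts cover counting error only. The SE of an edgeR fold change was worked out from the log2 fold change and its F value. The 95% intervals of fold changes use the normal distribution on this SE, so with few libraries they are narrower than the F test would give. The edgeR test was tested on simulated data. Named genes are the members, and from each list up to 4 genes past the test with the largest fold change or, with none, the 2 with the smallest p. For cells with several members, the 15 highest genes past the test were also named, taken only from those higher in all 4 libraries. The 5 lowest past the test were named without that condition.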

Additional observations from a re-analysis of the deposited data

Results flagged for a closer look

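UMIs of the genes were also found in cells that no comparison used. In the 66 cells that passed more than 1 gate there were 160 UMIs of Ifng, 7 of Csf2, 62 of Il4, 36 of Tnf and 106 of Cd40lg. Of these 66 cells, 37 passed both the T gate and a myeloid one, and scrublet marked 7. In the 58 cells that passed no gate there were 39 UMIs of Ifng, 4 of Il4, 5 of Tnf and 8 of Cd40lg.

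Among Cxcr6-positive T cells, the difference in Csf2 between cells with and without NKT genes was not the same in the zones. The log2 fold change in PV minus that in CV was 4.92, and 3.60 without the T cell richest in Csf2. In this test 5 of 5569 genes passed. The difference in CPM, cells with NKT genes minus cells without, averaged 216.9 over the PV libraries and -112.4 over the CV libraries. The CV mean came mostly from CV1, with 41.8 against 260 CPM, while CV2 had 22.0 against 28.2. In CV1, 32 of the 35 UMIs of cells without NKT genes lay in 1 cell. That cell and the PV2 cell with 133 UMIs stayed in both fits. The difference of Il2 in CPM, NK minus T cells, averaged -13.3 over PV and 7.10 over CV libraries, each zone moving one way; it rests on 4 UMIs in NK cells and was not past the test of the difference (edgeR adjusted p = 0.873).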

How the results depend on the processing

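The counts of cells limit these results: 5 to 24 Cd8-positive cells and 4 to 21 NK cells a library, and 2 libraries a zone. Without the 1 cell richest in Csf2, its call for Cxcr6 was lost and its call in NK against T cells was kept. The cause was not tested for any change given here, apart from fits that leave out a library or a cell and so hold less data. No value is given for thinned cells in the Cd4 against Cd8 and NK against T comparisons or for 5% mitochondrial UMIs in the latter, since some sums held under 4 cells.

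Between zones in T cells, the calls numbered 12 higher and 30 lower without a filter on low counts, 2 lower with DESeq2 and 3 lower with a T gate of 1 UMI. The direction of Cd40lg turned with thinned cells (-0.13) and without the cell richest in Csf2 (-0.0089), and that of Ifng with thinned cells (0.085). In Cxcr6-positive cells thinning gave 1 gene higher (Csf2) and 1 lower (Hspa1b), and Ifng turned to 0.068. There Il4 turned to -0.0031 without the myeloid limit and to -0.039 without that cell. The zonal difference in the share of T cells with Il4 was 3.40 points unthinned and -2.85 at 2000 UMIs, that of Il13 0.267 and that of any of the 8 genes -5.26 at 2000 UMIs.

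The replicate number of the labels was used as a block in the zone comparisons, where the numbers are not known to pair the samples. With the replicate block, 1 gene was higher (Csf2, 2.12) and 1 lower (Xcl1, -0.86) in Cxcr6-positive cells, and in all T cells none passed, with Csf2 at 2.19 and Cd40lg at -0.0042.

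For Cxcr6, the genes higher and lower were 43 and 107 with DESeq2, 53 and 91 with a T gate of 1 UMI and 57 and 112 without the myeloid limit, and 202 were higher without a filter. For NKT genes they were 2 and 5 with DESeq2, 13 and 50 with thinned cells and 35 and 21 without a filter, and 0 were higher without the myeloid limit. Ifng turned there to 0.021 with DESeq2, 0.012 at 5% mitochondrial UMIs, 0.12 thinned and 0.077 without a filter, Cd40lg to 0.0072 with all shared barcodes kept and to 0.051 without a filter, and Csf2 to -0.16 without the richest cell. For Cd4 against Cd8 the counts were 12 and 14 with DESeq2, 17 and 12 at 5% mitochondrial UMIs and 56 and 52 with all shared barcodes, and 44 were higher without a filter. Tnf turned to 0.23 with DESeq2, 0.033 with shared barcodes, 0.23 without a filter and 0.048 without the myeloid limit. For NK against T cells DESeq2 gave 130 lower. For cells with several genes, 30 were higher and 14 lower with DESeq2, 112 higher unthinned, 114 higher without a filter and 33 higher and 10 lower within NKT-like cells, where Il2rb turned to -0.094.

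Over the 4 fits that each left out 1 library, the zonal difference in the share of Il13 ran from 0.637 to 1.30 points. In T cells between zones, the genes higher numbered 3 to 10 and those lower 11 to 62. There Ifng ran from -0.76 to 0.63, Il4 from -0.18 to 0.40, Il2 from -1.10 to 0.15, Tnf from -0.87 to 0.33, Cd40lg from -0.50 to 0.42 and Maf from -0.64 to 0.20. In Cxcr6-positive cells between zones, 2 to 16 were higher and 2 to 57 lower, with Ifng at -0.87 to 0.45, Il4 at -0.25 to 0.31, Il2 at -0.97 to 0.053, Tnf at -0.97 to 0.27 and Cd40lg at -0.59 to 0.32. For Cxcr6, 40 to 125 were higher and 79 to 212 lower. For NKT genes, 2 to 9 were higher and 2 to 7 lower, with Ifng at -0.33 to 0.50, Csf2 at -0.30 to 2.43, Tnf at -0.62 to 0.44, Cd40lg at -0.25 to 0.33 and Zfp36l1 at -0.011 to 0.33. For Cd4 against Cd8, 7 to 25 were higher and 8 to 35 lower. For NK against T cells, 60 to 120 were higher and 167 to 237 lower, with Ifng at -0.52 to 0.70, Il2 at -0.57 to 0.11 and Tnf at -1.36 to 0.14. For cells with several genes, 35 to 61 were higher and 22 to 79 lower.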
